A study of Mus musculus with 4 samples.

Results

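Described here are 9 genes of the erythroid lineage in HSC-enriched cells, chosen by name from a list of regulators, receptors and membrane genes, out of 23906 gene symbols in the deposited files. They are the transcription factors *Gata1*, *Klf1* and *Nfe2*, the receptors *Epor* and *Tfrc*, the membrane protein genes *Slc4a1* and *Ermap*, and the carbonic anhydrases *Car1* and *Car2*. All 9 had a row in each file, all 9 passed the filters on low FPKM, and no other symbol shared the values of any of them. RNA was sequenced from LSK-SLAM cells (Lin-Sca1+cKit+CD150+CD48-) of *BRE-GFP* transgenic mice on a C57BL/6 background, heterozygous for a transgene in which a BMP responsive element drives GFP, so that GFP marks cells with active BMP signalling at the moment of isolation. There were 4 libraries, 1 each of GFP+ and GFP- cells from fetal liver (FL) at embryonic day 14 and of GFP+ and GFP- cells from adult bone marrow (BM). Every group carries the transgene, and no treatment is given for any. The age of the adult mice behind the RNA and the number of animals per library are not given in the sources used here. The sort removed cells with CD3, B220, Ter119 or Ly6C, and in the BM also CD11b, and Ter119 marks maturing red cells. With 1 library per group a difference between 2 libraries has no replicate check, and the depth behind a single FPKM (fragments scaled to transcript length and to library size, so that levels of different genes can be compared) cannot be read from the files, which hold no counts.

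Red cells form from stem cells through progenitors that first switch on lineage factors and later fill with haemoglobin. GATA1 and its partners activate most erythroid genes, KLF1 adds the adult globin and membrane programme, and NF-E2 acts through the globin control region and in platelet formation. Erythropoietin, read by EPOR, keeps erythroid progenitors alive, TFRC brings in the iron that haem needs, SLC4A1 (band 3) is the anion exchanger that anchors the red cell skeleton, and ERMAP is an erythroid member of the butyrophilin-like family that carries, in humans, Scianna blood group antigens. Carbonic anhydrases interconvert CO2 and bicarbonate, and CAR1 and CAR2 are their main red cell forms.

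The libraries differed in more than the erythroid genes. The summed FPKM ran from 541453 in FL GFP- to 1000848 in BM GFP+. Fewer genes were above 0 in the GFP+ than in the GFP- library of each tissue, 12372 against 15556 in FL and 13489 against 17345 in BM. All 8 fetal-stage genes listed (among them *Mycn*, *Igf2bp1* and *H19*) were more than 2-fold higher in FL than in BM libraries of either fraction, which is the direction of the tissue labels. No row of the files holds the GFP transgene. Genes of the BMP pathway, looked at after values were seen, gave a mixed picture of the fraction labels. The BMP target *Id1* favoured the GFP+ library by 1.93-fold in FL and 4.03-fold in BM (1.62-fold and 2.94-fold with equal FPKM totals), and *Id3* was level in the FL (0.995 times) and 2.57-fold higher in the BM. The targets *Id2* and *Smad6* were 1.10-fold and 1.17-fold higher in the FL and 5.64-fold and 1.30-fold in the BM, except that with equal totals *Id2*, *Id3* and *Smad6* were lower in the FL and *Smad6* in the BM, and *Smad7* was listed at 0 in FL GFP+ cells against 0.489 and 3.35-fold higher in the BM. The receptor gene *Bmpr2* was lower in GFP+ cells, at 0.120 against 2.02 FPKM in the FL and 0.0381 against 0.251 in the BM, all low levels, and *Bmpr1a* and *Acvr1* were listed at 0 in both GFP+ libraries and at or below 0.466 in the others. Because the GFP+ libraries had fewer genes above 0, a listed 0 at such levels cannot decide the order of the labels. Whether the GFP+ and GFP- libraries are in their labelled order is therefore not settled here, and every direction by GFP given below rests on those labels and would turn if they were exchanged. Of 12 stem cell genes, 10 were more than 2-fold lower in BM GFP+ than in BM GFP- cells and 1 higher, whereas 2 were higher and 1 lower in GFP+ cells of the FL. In FL against BM 9 of 12 (GFP+) and 3 of 12 (GFP-) were higher, with 2 lower in each. By GFP, 19.6% of all genes were lower and 21.1% higher in GFP+ cells of the BM, and 26.8% and 17.9% in those of the FL. By tissue, 25.1% were higher and 33.6% lower in FL (GFP+), and 19.3% and 18.6% (GFP-). *Procr*, an HSC surface receptor gene, was listed at 0 in BM GFP+ cells against 60.8 to 113.5 in the other libraries. The BM libraries held high levels of genes of mature cells that the sort should remove. The granulocyte gene *S100a8* reached 25286 FPKM in BM GFP+ cells and 3189 in BM GFP- cells, against 9.78 to 25.3 in FL libraries.

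For 5 of the 9 genes (*Gata1*, *Klf1*, *Epor*, *Tfrc* and *Ermap*) the table of promoter sequences from RefSeq (build GRCm38.p6) had an entry, and the 250 bases before each annotated start were searched on both strands for sites of the factors above. The GATA motif was taken as AGATAA or TGATAA or AGATAG or TGATAG, the KLF motif as CCNCNCCC, whose matches can overlap each other, and the NF-E2 motif as TGAGTCA on either strand. Matches to the GATA motif were present once each in the windows of *Klf1*, *Epor* and *Ermap* and not in those of *Gata1* or *Tfrc* (which has 2 windows), where 26.5% of all 32851 windows hold one. KLF matches were in the windows of *Epor*, *Gata1* and *Tfrc* (45.9% of all windows) and an NF-E2 match in none of them (4.46% of all windows). A match is a string of letters and not a measured binding site. The stretches around the 3 GATA matches are shown because the regulator and its textbook targets are both among the genes described. They lie at chr8:84901862-84901947 on the plus strand for *Klf1*, chr9:21963585-21963670 on the minus strand for *Epor* and chr4:119190017-119190102 on the minus strand for *Ermap*, each read 5′ to 3′ toward the gene, with the match in capitals as its reverse complement. The match ends 75, 49 and 62 bases before the annotated start, in that order.
Klf1: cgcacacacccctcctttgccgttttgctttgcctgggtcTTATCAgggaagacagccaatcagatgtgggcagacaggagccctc
Epor: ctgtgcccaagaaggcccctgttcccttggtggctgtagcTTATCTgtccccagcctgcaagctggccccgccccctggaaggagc
Ermap: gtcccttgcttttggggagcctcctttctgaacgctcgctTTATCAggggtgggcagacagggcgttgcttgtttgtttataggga

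*Gata1*, which encodes the master erythroid and megakaryocytic factor (chromosome X of NCBI37/mm9, 7536386 to 7555197), had 36.5 FPKM in the GFP+ against 6.58 in the GFP- library of FL, and 41.0 against 49.3 in those of BM. FL GFP- cells stood apart with the lowest level. The other 3 libraries were close, with neighbours in the order of levels 1.20-fold and 1.12-fold apart, whereas the step down to FL GFP- cells was 5.55-fold. *Klf1* (chromosome 8, 87425827 to 87429194) had 19.6 FPKM in the GFP+ against 13.9 in the GFP- library of FL, and 86.7 against 52.0 in those of BM. Here the tissues separated, both BM libraries lying above both FL libraries, and the smallest gap between the tissues was 2.65-fold. *Nfe2* (chromosome 15, 103078643 to 103088834), whose product pairs with small MAF proteins, had 167.0 FPKM in the GFP+ against 153.4 in the GFP- library of FL, and 156.1 against 191.8 in those of BM. Its highest and lowest levels were 1.25-fold apart, the smallest range of the 9 genes, and it ranked above at least 93.0% of the detected genes in each library.

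The order of the 3 factors by FPKM changed between libraries. *Nfe2* was the highest of them in all 4. *Klf1* exceeded *Gata1* in FL GFP- and BM GFP+ cells, at 2.11 times the *Gata1* level in each, was close to it in BM GFP- cells (1.06 times) and was below it in FL GFP+ cells (0.538 times). Ratios within a library do not depend on scaling between libraries. *Gata2*, the GATA factor of stem and early progenitor cells that GATA1 replaces during erythroid maturation, had 138.5 FPKM in the GFP+ against 87.6 in the GFP- library of FL, and 25.0 against 86.4 in those of BM. The *Gata1*/*Gata2* ratio of FPKM was therefore 0.264 and 0.0751 in the FL (GFP+ and GFP-), and 1.64 and 0.570 in the BM. BM GFP+ cells were the one library in which *Gata1* exceeded *Gata2*, and their *Gata2* level was the lowest of the 4 while their *Gata1* level was not the highest.

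*Epor* (chromosome 9, 21763343 to 21768020), the erythropoietin receptor, had 50.1 FPKM in the GFP+ against 19.5 in the GFP- library of FL, and 32.4 against 22.3 in those of BM. The GFP+ library was the higher one in both tissues, and both GFP- libraries were lowest and 1.14-fold apart. *Tfrc* (chromosome 16, 32609006 to 32632880), the transferrin receptor of dividing and haem-making cells, had 18.1 FPKM in the GFP+ against 10.3 in the GFP- library of FL, and 22.3 against 18.4 in those of BM. FL GFP- cells again had the lowest level, 1.76-fold below the next, and FL GFP+ and BM GFP- cells differed by 1.02-fold. *Tfrc* was a gene of middle rank, above 58.4% to 71.8% of the detected genes of a library. *Epor* was the more abundant receptor transcript per length in each library, from 1.21 times the *Tfrc* level in BM GFP- to 2.76 times in FL GFP+ cells.

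*Slc4a1* (chromosome 11, 102210138 to 102227517) had 18.9 FPKM in the GFP+ against 13.7 in the GFP- library of FL, and 115.0 against 9.59 in those of BM. A single library, BM GFP+, stood 6.08-fold above the next, and the other 3 lay between 9.59 and 18.9, with steps of 1.38-fold and 1.42-fold between neighbours. *Ermap* (chromosome 4, 118848062 to 118862616) had 13.4 FPKM in the GFP+ against 0.662 in the GFP- library of FL, and 11.3 against 7.25 in those of BM. For this gene it was again FL GFP- that stood apart, 10.9-fold below the next library, and the FPKM there was under 1. The membrane genes thus had different outlying libraries, high BM GFP+ for *Slc4a1* and low FL GFP- for *Ermap*.

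*Car1* and *Car2* lie 107966 bases apart on opposite strands of chromosome 3 (14766217 to 14778459 and 14886426 to 14900769). *Car1* had an FPKM of 9.99 in FL GFP+ cells, was listed at 0 in FL GFP- cells, and in the BM had 236.2 in GFP+ against 337.8 in GFP- cells. Both BM libraries were at least 23.7-fold above the FL GFP+ library, and the BM libraries were 1.43-fold apart. Of the 9813 genes that reached 1 FPKM in FL GFP+ cells, 2.10% were listed at 0 in FL GFP- cells. *Car2* had 420.4 FPKM in the GFP+ against 547.2 in the GFP- library of FL, and 668.9 against 894.6 in those of BM. It was the most abundant of the 9 genes in every library, above at least 98.3% of the detected genes, and its order ran in steps of 1.22-fold to 1.34-fold. In the BM *Car2* was 2.83 times (GFP+) and 2.65 times (GFP-) as abundant as *Car1* per length, against 42.1 times in FL GFP+ cells. Of the 14 other carbonic anhydrase genes only *Car9* passed an FPKM of 10 in any library (14.4 against 8.89 in the FL and 4.45 against 9.34 in the BM, GFP+ first). *Car3* was listed at 0 in both FL libraries and had 3.84 and 3.03 in BM GFP+ and GFP- cells, and *Car13* was listed at 0 in both GFP+ libraries and had 3.65 and 4.35 in GFP- cells of FL and BM. Between 3 and 6 of these 14 genes reached an FPKM of 1 in either library of a comparison, and 0 were more than 2-fold higher and 2 of 3 lower in the GFP+ fraction of the FL, and 2 were higher and 3 of 6 lower in that of the BM. In FL against BM 1 was higher and 3 of 4 lower (GFP+), and 0 and 1 of 4 (GFP-). By GFP, 17.9% of all genes were higher and 26.8% lower in GFP+ cells of the FL, and 21.1% and 19.6% in those of the BM. By tissue, 25.1% were higher and 33.6% lower in FL (GFP+), and 19.3% and 18.6% (GFP-). The family outside *Car1* and *Car2* summed to 15.1 to 21.7 FPKM.

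**Figure D1:**
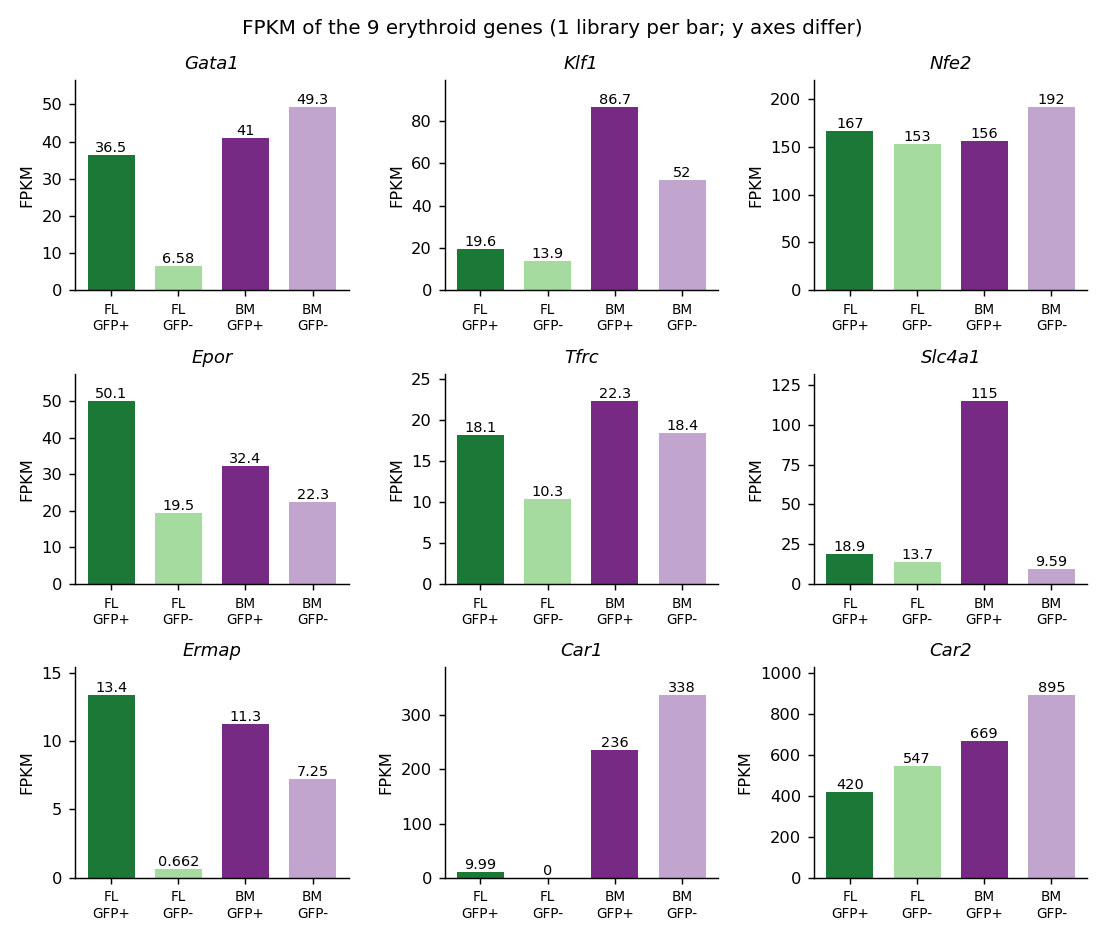
FPKM (y axis, from 0, scale differing between panels) of each of the 9 genes in the 4 libraries (x axis), 1 bar per library without replicates. Gata1 and Ermap are low in FL GFP- cells (6.58 and 0.662), Slc4a1 is high in BM GFP+ cells (115.0), Klf1 and Car1 are higher in both BM libraries, and Nfe2 is nearly level.

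The first comparison, GFP+ against GFP- cells, addresses whether BMP-activated and non-activated HSC types differ. The rule, applied to each pair of libraries on its own, was an FPKM more than 2 times that in the other library, among genes that reached 1 FPKM in either. In the FL, 4 of the 9 genes were past it and higher in GFP+ cells, namely *Gata1* (5.55-fold), *Epor* (2.57-fold), *Ermap* (20.2-fold) and *Car1* (listed at 0 in GFP- cells), where 17.9% of all 12134 genes were. None (0 of 9) was past it in the other direction, where 26.8% of all genes were. Of the 5 within 2-fold, *Tfrc*, *Klf1*, *Slc4a1* and *Nfe2* were 1.76-fold, 1.42-fold, 1.38-fold and 1.09-fold higher in GFP+ cells (*Nfe2* lower once libraries were rescaled to equal FPKM totals or upper quartiles) and *Car2* was 1.30-fold lower. The median difference over the 9 genes was 0.76 on the log2(FPKM + 1) scale, a scale that understates changes of low genes, against 0.053 over all genes. Of all genes past 2-fold in the FL 40.1% were higher in GFP+ cells, and 29.3% with equal totals, a scaling under which the same number of the 9 genes (4) passed, all higher. Beside these differences, 6 of 8 hepatocyte genes that could be compared were also more than 2-fold higher in FL GFP+ cells (*Alb* at 139.5 against 9.49, *Afp* at 148.7 against 5.66), with a summed level of 452.2 against 70.3. Of 11 macrophage genes 5 were higher and 6 lower there, and of the 4 genes of mast cells, basophils and eosinophils that could be compared all were lower, 7 of the 8 listed being at 0 in FL GFP+ cells. Of 11 megakaryocyte and platelet genes 1 was higher and 5 lower. Granulocyte genes (3 of 6 higher, 2 lower), B cell genes (3 of 4 higher, 1 lower) and T cell genes (0 of 2 past 2-fold) summed to 587.5, 96.3 and 12.9 FPKM in FL GFP+ cells. Fewer cells of a type and less RNA per cell cannot be told apart in such bulk samples, and the part of these cells in the result was not tested.

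In the BM, *Slc4a1* alone was past the rule, 12-fold higher in GFP+ cells. That 1 of 9 compares with 21.1% of all 12385 genes, and the 0 of 9 lower in GFP+ cells with 19.6%. *Klf1*, *Ermap*, *Epor* and *Tfrc* were 1.67-fold, 1.56-fold, 1.45-fold and 1.21-fold higher in GFP+ cells (*Tfrc* lower with equal totals), whereas *Car1*, *Car2*, *Nfe2* and *Gata1* were 1.43-fold, 1.34-fold, 1.23-fold and 1.20-fold lower. The median over the 9 genes was 0.26, against 0.12 over all genes. Of all genes past 2-fold in the BM 51.8% were higher in GFP+ cells, and 32.2% with equal totals. None of the 9 genes was past 2-fold by GFP in the same direction in both tissues, the requirement of the study for its lists (0 of 9 higher and 0 of 9 lower in GFP+ cells, against 3.45% and 6.48% of the 10910 genes compared in both). Genes of several mature lineages were higher in the same BM GFP+ library, with 6 of 10 granulocyte genes, 7 of 9 B cell genes, 5 of 6 T cell genes, 9 of 10 macrophage genes and 6 of 8 genes of mast cells, basophils and eosinophils more than 2-fold up. Their summed FPKM was 64056 against 17786 for granulocytes, 3826 against 1067 for B cells, 164.9 against 52.8 for T cells, 358.5 against 108.2 for macrophages and 7710 against 1062 for mast cells, basophils and eosinophils. No listed gene of these lineages was at 0 in BM GFP+ cells except 1 macrophage gene. Of 12 megakaryocyte and platelet genes 1 was higher and 4 lower in BM GFP+ cells. The part of mature cells in the *Slc4a1* difference was not tested.

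The second comparison, FL against BM, addresses changes with ontogeny and reuses the same 4 libraries. Between the GFP+ libraries 3 of 9 genes were past the rule, all lower in FL, *Car1* by 23.7-fold, *Slc4a1* by 6.08-fold and *Klf1* by 4.41-fold, where 33.6% of all 12120 genes were lower in FL. That share is close to the background. None (0 of 9) was higher in FL, against 25.1% of all genes. Between the GFP- libraries 4 of 9 were past it and lower in FL, against 18.6% of all 12703 genes, and 0 of 9 were higher, against 19.3%. They were *Car1* (listed at 0 in FL), *Ermap* (10.9-fold), *Gata1* (7.49-fold) and *Klf1* (3.75-fold). *Car1* and *Klf1* were thus lower in FL in both fractions, *Slc4a1* in the GFP+ fraction alone and *Gata1* and *Ermap* in the GFP- fraction alone. The medians over the 9 genes were -0.28 between GFP+ and -0.78 between GFP- libraries, against -0.15 and -0.038 over all genes. Of all genes past 2-fold 42.8% (GFP+) and 51.0% (GFP-) were higher in FL, but 60.3% and 69.7% with equal totals, where *Epor*, 1.55-fold higher in FL GFP+ than in BM GFP+ cells as deposited, was past 2-fold. Beside *Car1*, all 10 granulocyte genes, all 9 B cell genes and all 8 genes of mast cells, basophils and eosinophils were also more than 2-fold lower in FL in both fractions, and of the megakaryocyte and platelet genes 7 of 11 and 7 of 12 were (*Pf4* at 0 and 6.45 in the FL, 244.9 and 315.3 in the BM). Of 6 T cell genes 6 and 5 were lower in FL, and of macrophage genes 7 of 10 (0 higher) and 5 of 11 (2 higher), the latter becoming 2 lower and 3 higher with equal totals. Hepatocyte genes were higher in FL, 6 of 7 in GFP+ and 5 of 7 in GFP- libraries. Whether other cell types had a part in the tissue difference was not tested.

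**Figure D2:**
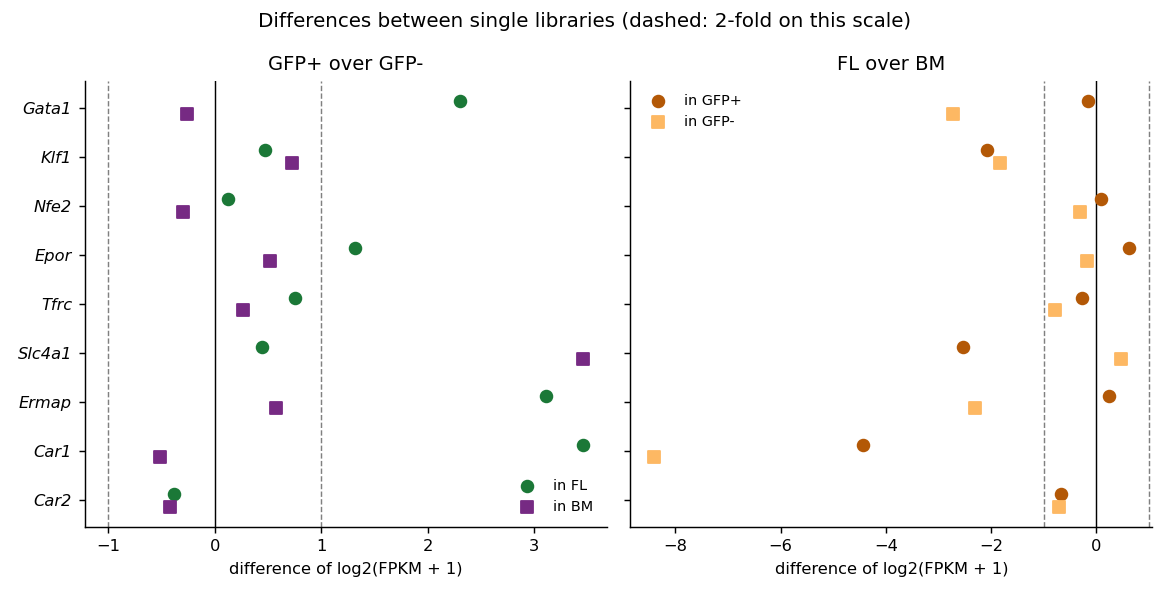
Difference of log2(FPKM + 1) (x axis) for each of the 9 genes (y axis), at left GFP+ over GFP- cells in FL (circles) and BM (squares), at right FL over BM in GFP+ (circles) and GFP- cells (squares), with dashed lines at 1 and -1. Gata1, Epor, Ermap and Car1 lie beyond 1 at left in FL and only Slc4a1 does in BM, and at right Klf1 and Car1 lie beyond -1 in both fractions.

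With no replicates, the other tissue stands in as the repeat of the GFP contrast, and the other fraction as that of the tissue contrast. A linear model of log2(FPKM + 1) with both factors (limma) covered the 11707 genes that reached 1 FPKM in 2 or more libraries and left 1 residual degree of freedom per gene. That residual measures how far the GFP effect differs between the tissues, and not variation between animals. To it limma added 7.52 prior degrees of freedom estimated over the genes fitted, so its *P* values rest largely on the scatter of other genes. For GFP no gene of the 9 was called (0 of 9) at a Benjamini-Hochberg adjusted *P* under 0.05, where limma called 0.111% of all genes. All 13 genes so called carry names of small RNAs (Snord, Snora or Mir), and none is a protein-coding gene like the 9. *Slc4a1* came nearest, with a log2 change of 1.95 (SE 0.75), an unadjusted *P* of 0.030 in limma, the 1 of the 9 under 0.05, and an adjusted *P* of 0.78. That change of *Slc4a1* averages unlike effects, 0.44 in the FL and 3.45 in the BM. For the tissue, *Car1* was called, as were 2.46% of all genes. The log2 change of *Car1* from BM to FL was -6.42 (SE 0.84, adjusted *P* = 0.0059 by limma), and *Car1* was lower in FL in both fractions. This call was lost with a pseudocount of 0.1 (adjusted *P* = 0.12) and without the intensity trend of limma (0.16), within a range of 0.0015 to 0.16 over the alternatives. *Klf1* had a log2 change of -1.96 (SE 0.47, adjusted *P* = 0.075 by limma). The other 7 genes had adjusted *P* values of at least 0.27 in limma for the tissue.

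Other genes of the red cell membrane and skeleton followed *Slc4a1* in part. Of the 22 listed, 11 were more than 2-fold higher in BM GFP+ than in BM GFP- cells and none (0) lower. The shares of all genes were 21.1% and 19.6%. The median log2(FPKM + 1) difference of the list was 0.98 against 0.12 over all genes. With equal totals 9 of the 22 were higher and 1 lower. In the FL, 7 of 18 that could be compared were higher in GFP+ cells and 3 lower, with a median of 0.65 (5 and 4 with equal totals). The shares of all genes there were 17.9% higher and 26.8% lower as deposited. *Kel*, *Icam4* and *Rhag*, which encode the Kell protein, an erythroid adhesion molecule and the Rh-associated glycoprotein, were higher in GFP+ cells of both tissues, by 3.68-fold, 2.58-fold and 4.45-fold in the FL and by 2.97-fold, 2.71-fold and 2.23-fold in the BM. *Rhd*, the Rh blood group gene, named after its values were seen, had 19.7 FPKM in the GFP+ against 27.3 in the GFP- library of FL, and 175.5 against 33.0 in those of BM. It shared with *Slc4a1* the high BM GFP+ library, although Ter119 was in the sort. *Cd47*, *Bsg* and *Gypc*, the most abundant of the list and broadly expressed, stayed within 2-fold in every comparison. Between FL and BM, 2 genes of the list were higher and 12 of 22 lower in the FL among GFP+ libraries, and 0 higher and 6 of 19 lower among GFP- libraries. With equal totals these became 5 and 10, and 3 and 6. As deposited, 25.1% of all genes were higher and 33.6% lower in FL among GFP+ libraries, and 19.3% and 18.6% among GFP- libraries. *Icam4*, *Tspan33* and the urea transporter gene *Slc14a1* were lower in the FL in both.

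**Figure D3:**
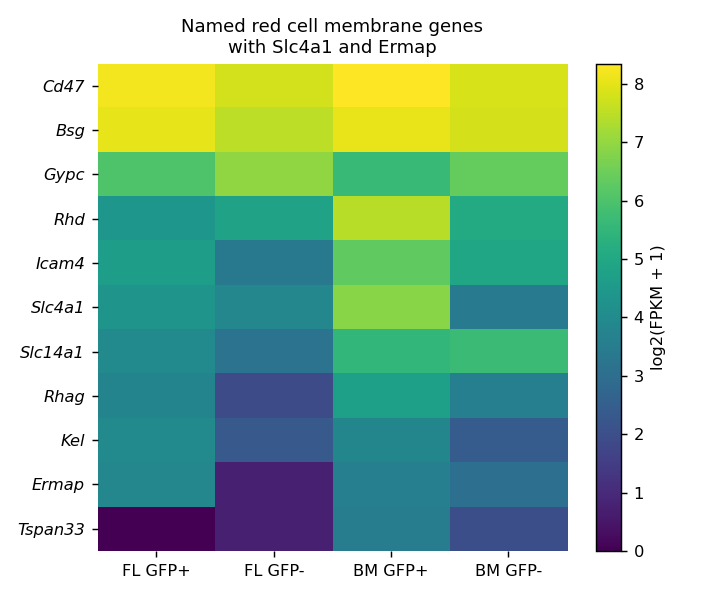
Log2(FPKM + 1) (colour) of 9 of the 22 red cell membrane and skeleton genes, those named in the text, and of Slc4a1 and Ermap (rows, ordered by mean) in the 4 libraries (columns). Slc4a1 and Rhd are brightest in BM GFP+ cells (115.0 and 175.5 FPKM), Ermap is at its darkest in FL GFP- cells (0.662), and Cd47 and Bsg are bright in each.

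The adult globin genes and *Alas2* had the same outlying library as *Slc4a1*. Of 9 haem synthesis genes 4 were more than 2-fold higher and 0 lower in BM GFP+ than in BM GFP- cells (median 0.94), and 2 and 1 with equal totals. The shares of all genes were 21.1% higher and 19.6% lower as deposited. *Alas2*, the erythroid first enzyme of the pathway, stood at 259.5 FPKM in BM GFP+ cells and 47.8 in BM GFP- cells, and at 11.9 and 12.9 in the FL pair. *Urod*, a later enzyme, reached 143.8 FPKM in BM GFP+ cells, compared with 133.7 for BM GFP-. In the FL, 2 of the 9 were higher and 2 lower in GFP+ cells, against 17.9% and 26.8% of all genes. The globin symbols in the files gave 5 distinct patterns of values, since *Hba-a1* and *Hba-a2* are identical, as are *Hbb-b1* and *Hbb-bs*, and the embryonic *Hbb-y* and *Hba-x* are both listed at 0 throughout. The embryonic *Hbb-bh1* was highest in FL GFP- cells, at 4.15 FPKM, and at or below 0.243 in the others. Of 3 patterns compared in the BM, 3 were more than 2-fold higher in GFP+ cells. The 5 patterns summed to 24565 FPKM in BM GFP+ cells and 3403 in BM GFP- cells, against 1857 and 1863 in FL GFP+ and GFP- cells. *Hbb-b1* was 7.18-fold higher in BM GFP+ than in BM GFP- cells and 1.01-fold apart in the FL, and *Hbb-bt* lay at 979.5 and 1021.1 in FL GFP+ and GFP- cells, compared with 4755 and 710.0 for the BM pair. In the FL, where *Gata1*, *Epor*, *Ermap* and *Car1* were higher in GFP+ cells, 0 of 4 globin patterns were more than 2-fold higher and 1 was lower. Between tissues, 5 and 4 of 9 haem genes and 3 of 3 and 2 of 4 globin patterns were lower in FL, in GFP+ and GFP- libraries in that order. The shares of all genes lower in FL were 33.6% and 18.6%. In FL GFP- cells 1 globin pattern was higher than in BM GFP- cells.

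Partners of the 3 factors did not share one direction. In the FL 2 of 17 were more than 2-fold higher and 5 lower in GFP+ cells (median 0.29), and in the BM 4 of 18 higher and 2 lower (median -0.087). By GFP, 17.9% of all genes were higher and 26.8% lower in GFP+ cells of the FL, and 21.1% and 19.6% in those of the BM. *Lmo2*, the bridging protein of the GATA1 and TAL1 complex, had 263.5 FPKM in the GFP+ against 237.7 in the GFP- library of FL, and 122.8 against 411.8 in those of BM, and was lowest where *Slc4a1* was highest. *Lyl1*, a TAL1 relative, stayed within 2-fold throughout, from 79.4 in FL GFP- to 130.4 in FL GFP+ cells. *E2f2*, a cell-cycle factor of erythroblast maturation, was higher in GFP+ cells of both tissues, at 17.1 against 1.04 in the FL and 19.4 against 3.31 in the BM. *Klf3*, a KLF1-induced repressor, was lower in the FL of both fractions, with 0 and 4.13 there (GFP+, GFP-), compared with 32.4 and 9.20 for the BM. Between FL and BM, 5 of 18 partners were higher and 6 lower in FL among GFP+ libraries, and 1 and 4 among GFP- libraries. With equal totals these became 8 and 5, and 3 and 2. The share higher in FL over all genes past 2-fold rose likewise, from 42.8% to 60.3% (GFP+) and from 51.0% to 69.7% (GFP-). As deposited, 25.1% of all genes were higher and 33.6% lower in FL among GFP+ libraries, and 19.3% and 18.6% among GFP- libraries.

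Around the receptors, 0 of 13 genes of Epo receptor signalling were more than 2-fold higher and 2 lower in FL GFP+ cells (median -0.37). Among all genes compared there, 17.9% were higher and 26.8% lower. For BM GFP+ cells 2 of 14 were higher and 2 lower (median 0.18), beside 21.1% higher and 19.6% lower among all genes. With equal totals, 1621 of 12457 genes were higher and 3919 lower in FL GFP+ cells. The BM GFP+ counts were then 1601 higher and 3377 lower of 12219. Of the Epo receptor list, 5 of 13 (FL) and 3 of 14 (BM) were then lower in GFP+ cells and 0 higher. *Ptpn6*, a phosphatase that ends EPOR signals, was the most abundant, from 239.6 in FL GFP- to 382.7 in BM GFP+ cells. *Kit*, the stem cell factor receptor used in the sort, had 102.3 FPKM in the GFP+ against 150.3 in the GFP- library of FL, and 22.2 against 76.6 in those of BM, lowest in the library with the highest *Slc4a1*. *Sh2b3*, an adaptor that restrains JAK2, was 2.46-fold higher in BM GFP+ than in BM GFP- cells. *Stat5b* was 2.38-fold and 2.24-fold higher in the FL, in GFP+ and GFP- cells, whereas *Osm* and the feedback gene *Socs3* were at or below 1.13 FPKM there. *Osm* was listed at 0 in both FL libraries against 60.7 and 28.0 in BM GFP+ and GFP- cells. *Socs3* had 0 and 1.13 against 16.1 and 14.3. Of the 14 genes, 3 were higher and 6 lower in FL among GFP+ libraries and 2 and 2 among GFP- libraries. With equal totals these became 4 and 3 (GFP+), and 3 and 2 (GFP-). Over all genes past 2-fold the share higher in FL also rose with equal totals, from 42.8% to 60.3% (GFP+) and from 51.0% to 69.7% (GFP-). As deposited, 25.1% of all genes were higher and 33.6% lower in FL among GFP+ libraries, and 19.3% and 18.6% among GFP- libraries. Of 12 iron genes 3 were higher and 3 lower in FL GFP+ than in FL GFP- cells, against 17.9% and 26.8% of all genes. In BM GFP+ cells 4 were higher and 1 lower than in BM GFP- cells, against 21.1% and 19.6% of all genes. With equal totals the BM counts were 1 and 1, against 1601 and 3377 of 12219 genes. *Hfe*, whose product binds TFRC, was higher in GFP+ cells of both tissues (12.8 against a listed 0 in the FL, 27.0 against 11.5 in the BM) and lower in the FL in both fractions. The ferritin genes *Ftl1* and *Fth1* reached 4715 and 3117 in BM GFP+ cells, their highest library, and *Snx3* lay between 231.5 and 396.9. Between tissues 1 of 12 iron genes was higher and 7 lower in FL among GFP+ libraries (2 and 3 with equal totals), and 1 and 2 among GFP- libraries.

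**Figure D4:**
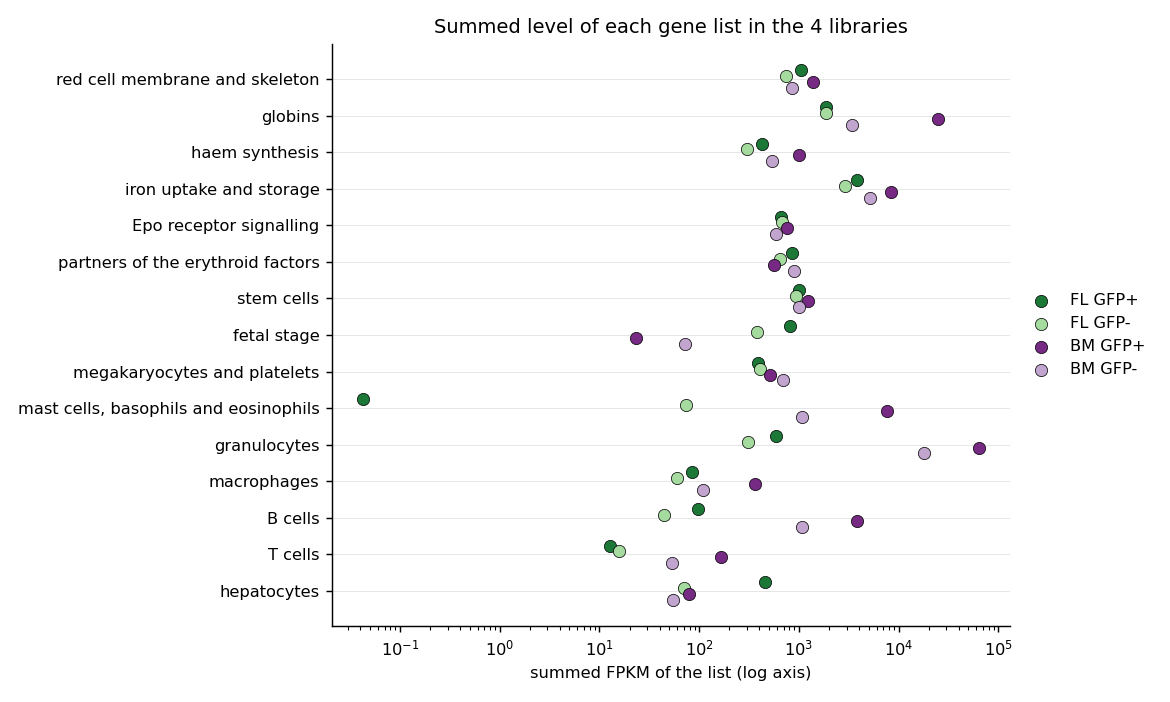
Summed FPKM (x axis, log scale) of each gene list (y axis) in the 4 libraries (points, offset vertically for sight, no replicates). Globins (24565) and granulocyte genes (64056) are highest in BM GFP+ cells, the fetal-stage list is highest in FL GFP+ cells (821.4), and the list of partners of the erythroid factors spans 557.5 to 882.4.

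Among the 9 genes themselves, likeness of pattern was measured as the Euclidean distance between the 4 values of log2(FPKM + 1) after subtracting each gene's mean. *Nfe2* and *Car2* were closest (0.68), then *Nfe2* and *Tfrc* (0.73) and *Epor* and *Tfrc* (0.86), all genes of small range. *Gata1* and *Ermap* were 0.92 apart, both low in FL GFP- cells. *Car1* was at least 5.01 from every other member, *Klf1* being the nearest, and its distance to its neighbour *Car2* was 6.34. Over all 13600 other genes that reached 1 FPKM in a library, those nearest to *Gata1* were *Tnip2* (0.21) and *0610009L18Rik* (0.27), those nearest to *Klf1* were *Unc93b1* (0.19) and *Tctex1d2* (0.21), and those nearest to *Ermap* were *Mapkapk2* (0.24) and *1810055G02Rik* (0.27). *Slc4a1* was nearest to *Parp1* (0.32), whose values the files repeat under *Mir6904*. For *Car1* the nearest genes were *Elane* (0.92) and *Ly6c2* (1.29), genes of granulocyte and monocyte progenitors. *Elane* had 79.9 FPKM in the GFP+ against 11.7 in the GFP- library of FL, and 3991 against 3042 in those of BM. None of these nearest genes is in the erythroid lists, but those lists hold only a small part of the 13600 genes compared. With 4 values per gene, this does not show whether the 9 genes vary with other erythroid genes.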

How the data were processed

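LSK-SLAM RNA was prepared with the mirVana kit and the SMARTer protocol and sequenced on a HiSeq2000 instrument. The authors mapped reads with Bowtie and TopHat and deposited FPKM values, computed with Cufflinks and Cuffquant, which adjusted for bias and for reads mapping to several places, and put on 1 scale by Cuffnorm (geometric method). The paper's methods name NCBI37/mm9, whereas the submitters' processing notes name mm10. Gene positions given here are GENCODE vM1 on NCBI37/mm9, and promoter sequences RefSeq on GRCm38.p6. The files hold no counts and whole reads were not recovered from the FPKM, so the number of reads behind an FPKM is unknown.

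Libraries were grouped by their titles. FPKM were compared as deposited with the study's threshold of 2-fold, but per pair of libraries, for tissue as well as GFP, and among genes reaching 1 FPKM in either library. The study asked for 2-fold by GFP in both tissues and stated no FPKM minimum. Effects of GFP and tissue were fitted with limma 3.58.1 in R 4.3.3 (lmFit, eBayes with trend, log2(FPKM + 1), Benjamini-Hochberg adjustment over all genes fitted). Fold calls and limma were tested on simulated data with small scatter and large GFP changes that were the same in both tissues. That setting is easier than these data, so it checks the code and not how reliable the calls here are. Other steps used Python 3.11.15 with pandas 2.3.3 and numpy 2.4.6.

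The 9 genes and all lists were chosen with earlier results of these data known. Named were the 9 genes, the 3 genes of highest mean FPKM in each list (for cell markers as examples), and up to 3 per direction past 2-fold the same way in both tissues or both fractions with an FPKM of at least 10, and the 2 genes nearest in pattern to each of the 9 whose log2 range was at least 2. *Rhd*, *Hbb-bh1*, *Procr*, the BMP pathway genes and the ratios within a library were picked after their values were seen. Lists covered partners of the factors, red cell membrane, iron, Epo receptor signalling, carbonic anhydrases, globins, haem synthesis, stem cells, the fetal stage and 7 kinds of other cells. Older symbols were matched for *Epb41*, *Epb42* and *Adgre1*. One globin and 1 T cell symbol had no row. Some genes of the lists are counted but not reported by name here.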

Additional observations from a re-analysis of the deposited data

Results flagged for a closer look

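Several of the 9 genes had effects that pointed opposite ways in the groups compared, each from 1 library per group, and these differences were not tested. Values are log2(FPKM + 1) effects and their difference. The GFP+ over GFP- effect of *Gata1* was 2.31 for the FL pair and -0.26 for the BM pair, a difference of 2.57. That of *Car1* was 3.46 and -0.51, a difference of 3.97, with *Car1* listed at 0 in FL GFP- cells. That of *Nfe2* was 0.12 and -0.30, a difference of 0.42, and its FL over BM effect was 0.097 in GFP+ and -0.32 in GFP- cells, again 0.42 apart. The FL over BM effect of *Slc4a1* was -2.54 in GFP+ and 0.47 in GFP- cells, a difference of -3.01. That of *Ermap* was 0.23 and -2.31, a difference of 2.54, and that of *Epor* was 0.61 and -0.18, a difference of 0.80. With equal FPKM totals 3 of these 7 no longer pointed opposite ways, on the scale of log2 ratios of FPKM, namely *Nfe2* by GFP (-0.13 and -0.75), *Nfe2* by tissue (0.73 and 0.11) and *Epor* by tissue (1.26 and 0.24).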

How the results depend on the processing

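Of 108 differences of single genes recomputed after rescaling, 100 kept their direction and their side of 2-fold, 7 differences under 2-fold changed direction and 1 passed the threshold. A rescaling shifts all genes of a comparison alike, and the filter and pseudocounts cannot turn a direction. All 7 came from rescaling to equal FPKM totals (6) or upper quartiles (1), which moved the median difference of all genes by -0.42 to 0.56 and by -0.21 to 0.15 on the log2 scale, depending on the comparison. With equal totals *Epor* was past 2-fold higher in FL GFP+ than in BM GFP+ cells (log2 1.26), and *Gata1* (0.46) and *Tfrc* (0.33) changed direction there. *Tfrc* did so between the BM fractions (-0.18), *Nfe2* between the FL fractions (-0.13, and -0.10 with equal upper quartiles) and between the GFP- libraries (0.11), and *Epor* between the GFP- libraries (0.24). A threshold of 1.5-fold gave 3 genes in place of 1 between the BM fractions and 5 in place of 3 between the GFP+ libraries of FL and BM. The limma call counts over all genes moved most. For GFP they were 13, and 1 with a pseudocount of 0.1, 4 without tissue in the model, 20 after rescaling by median ratios and 0 without the trend, where 685 genes had an unadjusted *P* under 0.05. For the tissue they were 288, and 80 with a pseudocount of 0.1, 189 without the filter on low FPKM, 176 without GFP in the model, 376 after rescaling by median ratios and 0 without the trend (1581 at an unadjusted *P* under 0.05). The cause was not tested. No paired analysis was possible because the labels carry no replicate numbers (the other factor was a term in limma), and leaving out a library would empty a group.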
